A study of Mus musculus with 4 samples.

Results

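The genes described here encode 10 matricellular and closely related matrix proteins: periostin (Postn) and its homologue Tgfbi, tenascins C and X (Tnc and Tnxb), the thrombospondins Thbs1 to Thbs4, osteonectin (Sparc) and the collagen triple helix repeat protein Cthrc1. They were taken by gene symbol, but earlier results of these data were known when the set was chosen, so the choice was not blind. All 10 were found among the 33641 gene symbols measured. All 10 also passed the limit of a mean level of at least 1 TPM, a unit that gives each gene's length-corrected share of a library's transcripts, that left 15815 genes for testing. The RNA came from primary cardiac fibroblasts of wild-type C57BL/6J mice aged 12 weeks, and the cells received 10 ng/ml TGFbeta or vehicle, with 2 libraries for each treatment. All 4 cultures, vehicle included, were grown to 80% confluency, given the uridine analogue 4-thiouridine at 20 and 4 h before crosslinking and crosslinked with 368 nm light at 200000 uJ per square cm. How long TGFbeta was present is not stated in the sources used. According to the series' design text the RNA had been bound by the protein HuR and was recovered by immunoprecipitation after crosslinking, whereas the sample labels describe total RNA, so the values are given as levels in these libraries only. The labels do not say whether the libraries of a treatment came from separate animals or cultures, so the p-values capture no more than library-to-library spread, which may be technical. In bulk RNA, fewer cells of a type and less RNA per cell cannot be told apart.

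Matricellular proteins are secreted into the matrix but act mainly as signals and adaptors rather than as load-bearing fibres. They bind collagens and fibronectin on one side and integrins or other cell surface receptors on the other, and they change adhesion, fibre assembly and the handling of growth factors. In the healthy adult heart most of them are scarce, and they are known for their return after injury, when fibroblasts become myofibroblasts. TGF-beta is a classical driver of that change.

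Periostin and Cthrc1 transcripts were more than 5 times as abundant with TGFbeta as with vehicle, and that of tenascin X was far lower. Thbs1 also rose, to 2.09 times its vehicle level. Postn had a fold value of 5.79, Cthrc1 of 5.43, and Tnxb was 9.58-fold lower with TGFbeta (ratios of mean TPM, n = 2 each). The other 6 genes did not pass the test: Tnc and the low-level Thbs4 and Tgfbi, the abundant Sparc, and Thbs2 and Thbs3, whose levels lay below those of vehicle. Limma's moderated test on log2(TPM + 1) with Benjamini-Hochberg adjustment over all genes thus called 3 of the 10 higher, against 1.54% of all tested genes, and 1 of 10 lower, against 4.38%. In either direction this made 4 of 10, against 5.92% of all tested genes, and 7 of 10 reached an unadjusted p under 0.05, against 24.5%. The median log2 change over the 10 genes was 0.31, and over all tested genes it was -0.13. Because the set was chosen with earlier results of these data known, these shares are no test of it.

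Without a variance model, the positions of the libraries gave a similar picture for genes higher with TGFbeta, but not for lower ones. Both TGFbeta libraries lay above both vehicle libraries for 5 of the 10 genes, against 15.5% of tested genes, and below both for 3, against 39.8%. Thbs4 and Tgfbi overlapped between treatments. A share of 55.3% of all tested genes did not overlap, so such a separation alone is common in these libraries. Together the 10 genes held 0.924% and 1.00% of all TPM in the TGFbeta libraries, against 0.710% and 0.623% in the vehicle libraries. Most of that sum was Sparc, which was not called, at 72.5% and 70.9% with TGFbeta and 82.9% and 83.9% with vehicle. Postn made up 10.7% and 13.2% with TGFbeta, against 3.12% and 2.84% with vehicle.

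**Figure D1:**
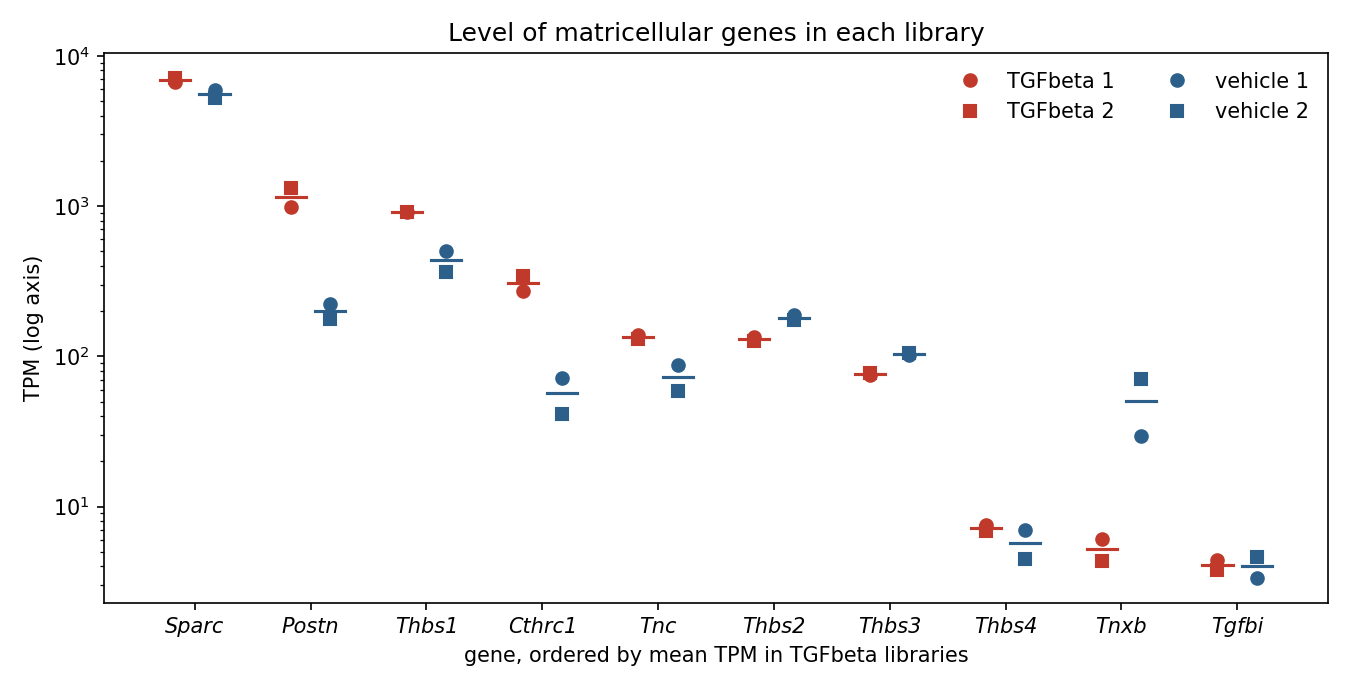
TPM of each gene in each of the 4 libraries on a log axis, with TGFbeta left of vehicle and a short line at the mean of 2 libraries. Postn, Cthrc1 and Thbs1 stand higher with TGFbeta, Tnxb stands far lower, and the points of Tgfbi and Thbs4 overlap between treatments.

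Postn encodes periostin, a protein of repeated fasciclin domains that binds integrins and collagen and serves as a standard marker of activated cardiac fibroblasts (ENSMUSG00000027750.16, on the plus strand of chromosome 3 from 54361109 to 54391037 in GRCm38, the build of all positions here). The TPM value of Postn was 984 and 1326 TPM in the TGFbeta libraries, against 222 and 177 TPM in the vehicle libraries. The lower TGFbeta library was thus far above the higher vehicle library. The log2 change was 2.52 (SE 0.20, limma adjusted p = 0.00633), the 15th highest of all tested genes. The call ended when either vehicle library was dropped (limma adjusted p = 0.0852 for vehicle 1 and 0.104 for vehicle 2, log2 changes 2.68 and 2.36), and when every gene above 0 was tested (0.0604).

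Tgfbi encodes the other fasciclin-domain protein of the set, named for its induction by TGF-beta in a human lung cancer cell line (ENSMUSG00000035493.10, chromosome 13, 56609523 to 56639562, plus strand). It had 4.41 and 3.75 TPM with TGFbeta, against 3.36 and 4.63 TPM with vehicle. Both TGFbeta values lay between those of the vehicle libraries. The log2 change of Tgfbi was 0.03 with a 95% interval from -0.51 to 0.57 (limma adjusted p = 0.949), which does not hold the size seen for Postn. The ratio of Postn to Tgfbi within a library, which the scaling of that library does not touch, was 223 and 353 with TGFbeta, against 65.9 and 38.3 with vehicle.

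Cthrc1 encodes a small secreted glycoprotein with a short collagen-like stretch, which is known to act on Wnt signalling through planar polarity and marks activated fibroblasts of injured heart (ENSMUSG00000054196.7, chromosome 15, 39076932 to 39087121, plus strand). It had 272 and 344 TPM in the TGFbeta libraries, against 71.7 and 41.6 TPM in the vehicle libraries. The groups did not overlap, although the vehicle libraries differed 1.72-fold from each other. The log2 change of Cthrc1 was 2.46 (SE 0.27, limma adjusted p = 0.0112). Dropping vehicle 1 gave 2.85 (limma adjusted p = 0.0828), dropping vehicle 2 gave 2.08 (0.0933), dropping TGFbeta 2 gave 2.29 (0.0524) and testing every gene above 0 gave an adjusted p of 0.0803, so each of these ended the call.

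Postn and Cthrc1 ran close to each other across the 4 libraries. The ratio of Cthrc1 to Postn was 0.276 and 0.259 with TGFbeta, against 0.323 and 0.235 with vehicle, so the ratio overlapped between treatments while both levels rose. Likeness was measured as the Euclidean distance of log2(TPM + 1), centred per gene, over the 4 libraries, among 8858 other named genes with a mean of at least 10 TPM. The nearest genes to Postn were the chemokine gene Ccl17 (distance 0.308), the potassium channel gene Kcnj15 (0.326) and Cthrc1 (0.329). For Cthrc1 they were Postn (0.329), Kcnj15 (0.397) and Ccl17 (0.491). With 2 libraries a treatment such a distance mostly records the size of the treatment difference.

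Tnc encodes tenascin C, a hexameric protein that loosens cell adhesion and appears in remodelling tissue (ENSMUSG00000028364.15, chromosome 4, 63959785 to 64047015, minus strand). It had 139 and 129 TPM in the TGFbeta libraries, against 87.8 and 58.3 TPM in the vehicle libraries. All TGFbeta values were above all vehicle values, and the vehicle libraries differed 1.51-fold. The log2 change of Tnc was 0.90 with a 95% interval from 0.39 to 1.40 and did not pass (SE 0.21, limma adjusted p = 0.0627). It did pass with a mean TPM of at least 5 (limma adjusted p = 0.0253), after median scaling (0.0349), in the robust fit (0.0423) and among protein-coding genes alone (0.0196), over a range of 0.0196 to 0.253 for all alternatives.

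Tnxb encodes tenascin X, a long protein of many fibronectin-type repeats that stabilises collagen networks and whose loss causes a form of Ehlers-Danlos syndrome in humans (ENSMUSG00000033327.16, chromosome 17, 34670535 to 34719815, plus strand). Its level was 6.08 and 4.36 TPM with TGFbeta, against 29.5 and 70.6 TPM with vehicle. The groups were far apart, but the vehicle libraries differed 2.40-fold from each other, the widest replicate gap among the 10 genes. Tnxb fell by 2.92 on the log2 scale (SE 0.40, limma adjusted p = 0.0197), the 19th lowest of all tested genes. Dropping any library ended the call (limma adjusted p = 0.0828 and 0.107 for vehicle 1 and 2, 0.0678 and 0.0800 for TGFbeta 1 and 2), as did testing every gene above 0 (0.101), while the log2 change stayed between -3.54 and -2.31. Cyp21a2-ps, a pseudogene that shares 3 exonic bases with Tnxb on the opposite strand, had at most 0.861 TPM in any library. The genes nearest to Tnxb in pattern were Eef1a2, an elongation factor gene (distance 0.749), the selenium-binding protein gene Selenbp1 (0.784) and the interferon-induced gene Ifitm1 (0.808).

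The tenascin genes thus took different shares of their joint level in the treatments. Tnc had 22.8 and 29.7 times the TPM of Tnxb in the TGFbeta libraries, against 2.98 and 0.826 times in the vehicle libraries. On the log2(TPM + 1) scale the ratio averaged 4.45 ± 0.21 with TGFbeta and 0.64 ± 1.28 with vehicle (SD, n = 2 each), a difference of 3.82. With 2 libraries against 2, an exact two-sided permutation test cannot give a p below 0.33, so the ratio has no test of its own. The summed TPM of Tnc and Tnxb was 145 and 134 with TGFbeta, against 117 and 129 with vehicle.

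**Figure D2:**
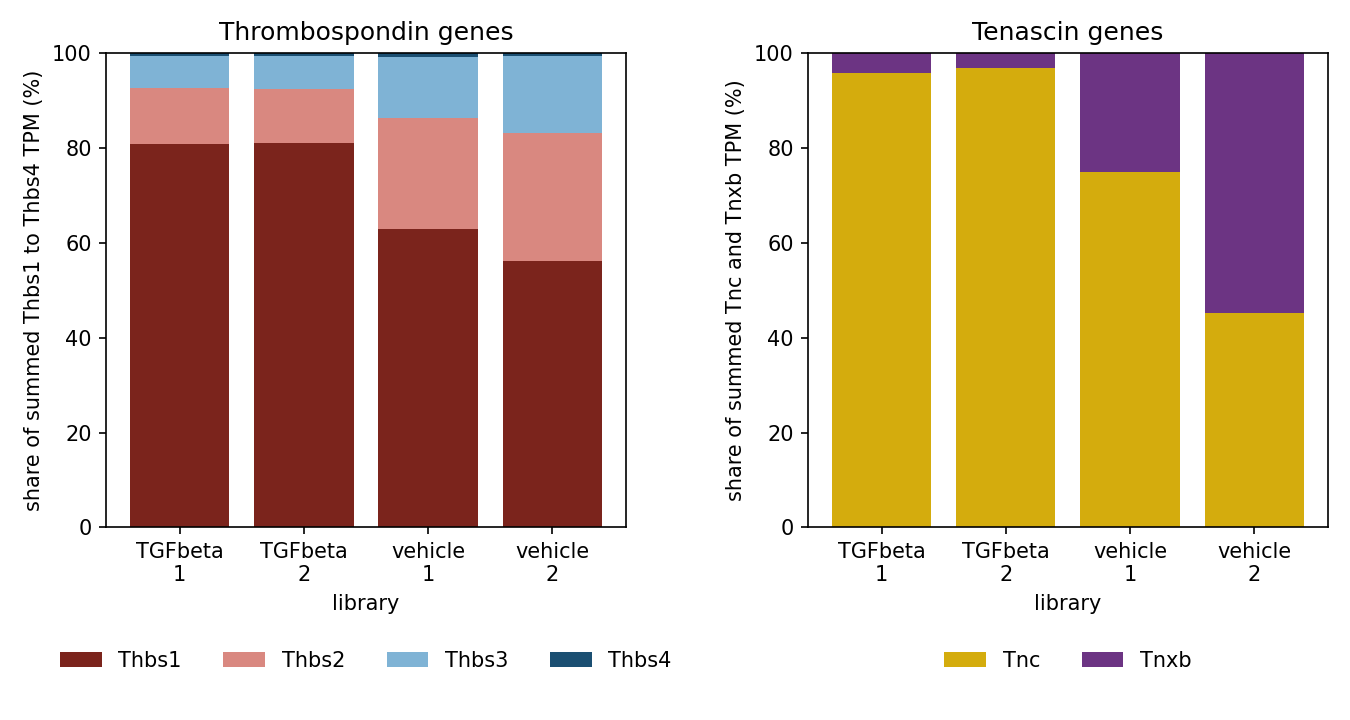
Stacked bars of the percentage of each thrombospondin gene in the summed TPM of Thbs1 to Thbs4 (left) and of Tnc and Tnxb in their sum (right), for 2 TGFbeta and 2 vehicle libraries. Thbs1 takes 80.8% and 81.1% with TGFbeta against 63.0% and 56.2% with vehicle, and Tnxb 4.20% and 3.26% against 25.1% and 54.8%.

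The thrombospondins form a pair of structural groups. Thbs1 and Thbs2 are trimers with type 1 repeats that bind the receptor CD36 and restrain blood vessel growth, and thrombospondin 1 can activate latent TGF-beta. Thbs3 and Thbs4 are pentamers without these repeats, and Thbs4 is known in the mouse heart for an adaptive role within the endoplasmic reticulum.

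Thbs1 (ENSMUSG00000040152.8, chromosome 2, 118111876 to 118127133, plus strand) had 915 and 906 TPM in the TGFbeta libraries, against 505 and 365 TPM in the vehicle libraries. The TGFbeta libraries were within 1.01-fold of each other and both stood above vehicle. Its log2 change was 1.08 (SE 0.19, limma adjusted p = 0.0337). This was the least secure of the 4 calls: it was lost when any library was left out (limma adjusted p = 0.118 and 0.222 without vehicle 1 and 2, 0.106 and 0.100 without TGFbeta 1 and 2), without an intensity trend (0.0558) and with every gene above 0 (0.114).

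Thbs2 (ENSMUSG00000023885.9, chromosome 17, 14665500 to 14694235, minus strand) went the other way from its close relative, with 135 and 127 TPM with TGFbeta, against 187 and 175 TPM with vehicle. All TGFbeta values lay below all vehicle values, and replicates differed by at most 1.07-fold. The log2 change of -0.47 did not pass (SE 0.13, 95% interval -0.78 to -0.16, limma adjusted p = 0.0910). Thbs3 (ENSMUSG00000028047.11, chromosome 3, 89215180 to 89226837, plus strand) had 74.8 and 78.0 TPM with TGFbeta, against 102.5 and 104.8 TPM with vehicle. It too was lower in both TGFbeta libraries without passing (log2 change -0.44, SE 0.13, limma adjusted p = 0.101). Relative to the median of all tested genes, the changes of Thbs2 and Thbs3 were -0.34 and -0.31. Thbs3 shares 318 exonic bases with Mtx1 on the opposite strand, so its level is uncertain if reads were counted without strand. Mtx1 had 148 and 127 TPM with TGFbeta, against 139 and 154 TPM with vehicle. The same limit holds for Thbs1, which shares 208 exonic bases with Gm29233 on the opposite strand. It also holds for Tnc, which shares 176 with 8030451A03Rik on the opposite strand. Neither Gm29233 nor 8030451A03Rik was among the gene symbols measured.

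Thbs4 (ENSMUSG00000021702.7, chromosome 13, 92751590 to 92794818, minus strand) was the scarcest of the 4, at 7.57 and 6.92 TPM with TGFbeta, against 7.0 and 4.49 TPM with vehicle. The groups overlapped, and the log2 change of 0.31 had a 95% interval from -0.26 to 0.89 (limma adjusted p = 0.469). The summed thrombospondin level was 1132 and 1118 TPM in the TGFbeta libraries, against 802 and 650 TPM in the vehicle libraries. Within that sum Thbs1 held 80.9% ± 0.18 with TGFbeta and 59.6% ± 4.75 with vehicle, and Thbs2 held 11.6% ± 0.40 with TGFbeta and 25.2% ± 2.52 with vehicle (SD, n = 2 each). Thbs1 had 6.79 and 7.16 times the TPM of Thbs2 with TGFbeta, against 2.69 and 2.09 times with vehicle.

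Sparc encodes osteonectin, a calcium- and collagen-binding glycoprotein needed for mature collagen fibres (ENSMUSG00000018593.13, chromosome 11, 55394500 to 55423183, minus strand). It was by far the most abundant of the 10, with 6700 and 7120 TPM in the TGFbeta libraries, against 5888 and 5231 TPM in the vehicle libraries. The TGFbeta values were both higher, yet the log2 change of 0.32 did not pass (SE 0.19, 95% interval -0.15 to 0.78, limma adjusted p = 0.372). Sparc had 6.81 and 5.37 times the TPM of Postn with TGFbeta, against 26.5 and 29.6 times with vehicle.

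**Figure D3:**
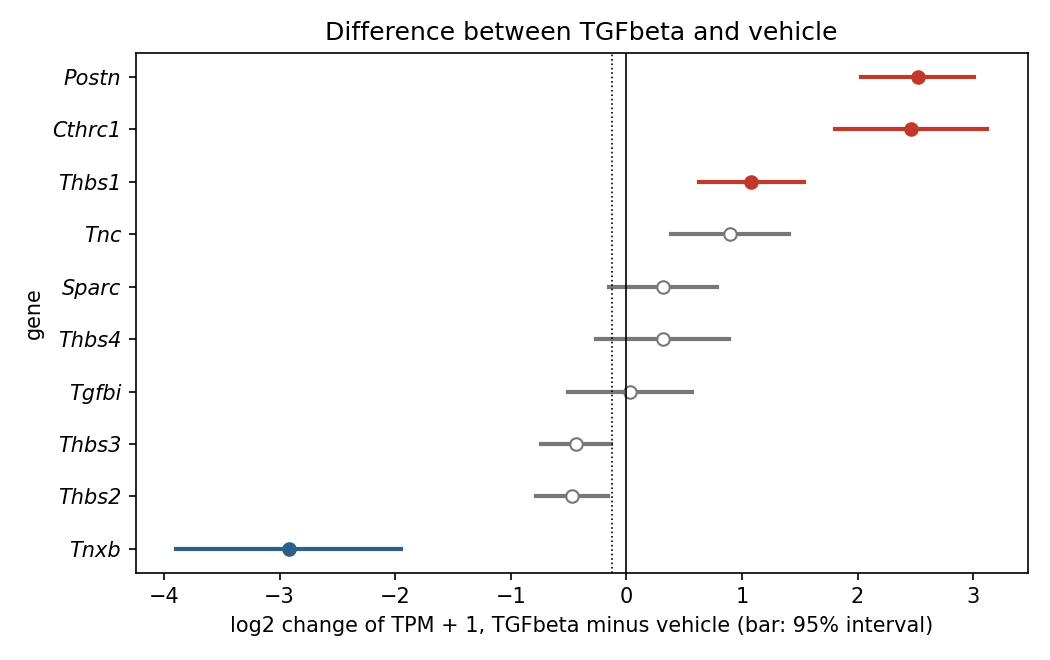
Log2 change of each gene, TGFbeta minus vehicle, with its 95% interval from the limma fit; filled points passed at an adjusted p under 0.05, the solid line is 0 and the dotted line is the median of all tested genes, -0.13. Postn, Cthrc1 and Thbs1 lie right of both lines and Tnxb left of both, and the intervals of Sparc, Thbs4 and Tgfbi cross 0.

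TPM is a level per transcript length, so the genes can be ranked within a library. With TGFbeta the order was Sparc, Postn, Thbs1, Cthrc1, Tnc, Thbs2, Thbs3, Thbs4, Tnxb and Tgfbi. Tnc and Thbs2 overlapped in that order, as did Tnxb and Tgfbi. With vehicle the order was Sparc, Thbs1, Postn, Thbs2, Thbs3, Tnc, Cthrc1, Tnxb, Thbs4 and Tgfbi, with overlap between Postn and Thbs2, among Tnc, Cthrc1 and Tnxb, and between Thbs4 and Tgfbi. Postn stood above 99.2% and 99.3% of tested genes in the TGFbeta libraries, against 95.5% and 94.1% in the vehicle libraries. Tnxb stood above 32.9% and 26.7% with TGFbeta, against 62.6% and 83.1% with vehicle.

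Promoters are shown for Postn, which had the largest rise of the set, and for Tnc and Tnxb, whose log2 changes had opposite signs. RefSeq (GRCm38.p6) gave entries of 300 bases, from 250 before to 50 after a start site, for 8 of the 10 genes; Cthrc1 and Thbs1 were the others. Letters were searched on both strands, and shares are of all 32851 promoters in the table. The Smad element CAGAC was held by 49.6% of them, the AP-1 element TGANTCA by 7.81% and the TEAD element CATTCC by 14.7%. The TATA element TATAAA was held by 13.6%, the CCAAT element by 37.4% and the CArG box of serum response factor by 1.63%. Capitals mark every match to these letters, on either strand.
Postn, the downstream of its pair of start sites, plus strand, chr3:54360857-54361156: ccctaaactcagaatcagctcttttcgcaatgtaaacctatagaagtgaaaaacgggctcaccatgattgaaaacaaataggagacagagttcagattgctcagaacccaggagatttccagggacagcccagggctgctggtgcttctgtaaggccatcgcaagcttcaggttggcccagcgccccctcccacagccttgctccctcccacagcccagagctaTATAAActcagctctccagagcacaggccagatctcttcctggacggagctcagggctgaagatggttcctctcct
Tnc, the downstream of its pair of start sites, minus strand, chr4:64046887-64047186: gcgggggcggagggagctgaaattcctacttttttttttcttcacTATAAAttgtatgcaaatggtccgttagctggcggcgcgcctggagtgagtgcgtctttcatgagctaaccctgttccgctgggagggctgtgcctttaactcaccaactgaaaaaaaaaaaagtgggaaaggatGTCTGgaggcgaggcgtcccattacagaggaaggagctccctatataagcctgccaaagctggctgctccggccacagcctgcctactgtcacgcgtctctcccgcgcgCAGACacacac
Tnxb, plus strand, chr17:34670285-34670584: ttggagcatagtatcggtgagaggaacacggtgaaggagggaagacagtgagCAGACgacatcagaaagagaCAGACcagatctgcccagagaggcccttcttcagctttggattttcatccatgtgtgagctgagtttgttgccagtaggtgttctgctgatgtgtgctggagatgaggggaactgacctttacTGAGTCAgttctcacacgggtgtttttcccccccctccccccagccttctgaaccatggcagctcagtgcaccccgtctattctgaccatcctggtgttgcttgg

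The Postn promoter shown held TATAAA with its first base 26 bases before the start, and no other match. At the upstream Postn start, which is not shown, CAGAC was found at position -191 and CCAAT at position 25. The Tnc promoter shown held TATAAA once, at position -205, and CAGAC once on each strand (written GTCTG for the opposite strand). That of Tnxb held CAGAC in 2 places and TGANTCA in 1, with no TATAAA. These are matches of letters and not sites. CAGAC was found in 8 of the 10 entries of the set, with none at this Postn start or at Thbs3, and no entry held a CArG box.

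HuR binds U- and AU-rich stretches, mostly in the 3′ untranslated region, so that region of the longest principal GENCODE transcript (GRCm38) was searched on the sense strand for ATTTA. It was present in 5 of the 10 genes, against 67.6% of 13212 tested coding genes with a region of at least 50 bases. Cthrc1 had 3 copies in 356 bases, a density of 8.43 per kb that exceeded 98.5% of those genes, whose median was 1.28 per kb. Thbs2 had 10 copies in 2013 bases (4.97 per kb) and Thbs1 had 6 in 2104 bases (2.85 per kb). Postn had 1 copy in 735 bases and Sparc 1 in 1085, while Tgfbi, Tnc, Tnxb, Thbs3 and Thbs4 had none. The related U-rich letters TTTNTTT were counted with overlapping matches and not per length. They occurred 21 times in Thbs1, 19 in Thbs2, 5 in Tnc, 4 in Cthrc1 and at most 2 times in each other gene. Over the tested coding genes the median count was 2 and the median length of the region 1036 bases. A window of 30 bases around a copy, the one with the most copies, is given for each of the 5, in the RNA sense with T for U, and capitals mark ATTTA.
Cthrc1, chr15:39086815-39086844, plus strand: cttgaatggttcATTTAaatgacATTTAag
Thbs2, chr17:14665596-14665625, minus strand: aagattgtaaatATTTATTTAtttgttcat
Thbs1, chr2:118126811-118126840, plus strand: tgtagatatgctATTTAaataATTTAtcag
Postn, chr3:54390808-54390837, plus strand: tttttacacttgATTTAtatcctcgagatg
Sparc, chr11:55395445-55395474, minus strand: gtgctaacatagATTTAactgaatacatta

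Receptors, partners, proteases and relatives of the 10 proteins were followed in lists. Of 18 tested receptors, 1 rose and 0 fell, beside 1.54% higher and 4.38% lower among all tested genes, and the list median was 0.17. A count of 1 in a list of this size is near that background, here and in the lists that follow. The one was Itga3, an integrin chain that binds thrombospondin 1, at 38.5 and 30.5 TPM with TGFbeta, against 18.2 and 18.8 TPM with vehicle (log2 change 0.86, limma adjusted p = 0.0431). The fibronectin receptor chain Itga5 had 0.65 (limma adjusted p = 0.0614) and the integrin chain Itga8 had -0.96 (0.0745), and neither passed. Itgb5, a partner chain of the periostin receptor, stood at 1244 and 1055 TPM with TGFbeta, against 738 and 845 TPM with vehicle, and did not pass; it was chosen after its values were seen.

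Of the 10 matrix binding partners, 2 rose, where 1.54% of all tested genes did, and 1 fell, where 4.38% did, with a median of 0.12. Lox, the collagen crosslinking enzyme that periostin helps to activate, had 1326 and 1497 TPM with TGFbeta, against 582 and 324 TPM with vehicle (log2 change 1.70, SE 0.28, limma adjusted p = 0.0296). Col12a1, a fibril-associated collagen that binds tenascins, had 554 and 581 TPM with TGFbeta, against 315 and 249 TPM with vehicle (log2 change 1.02, limma adjusted p = 0.0269). Col6a1, a chain of microfibrillar collagen, fell by 0.75 on the log2 scale (limma adjusted p = 0.0427); it was chosen after its values were seen, and quantile normalization and median scaling each ended its call. Col1a1 had 0.91 and did not pass (limma adjusted p = 0.0958).

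Among the 12 tested Wnt and planar polarity genes, 1 rose and 0 fell (5.92% of all tested genes were called in either direction), with a median of -0.08. The receptor gene Fzd6 had 17.9 and 16.8 TPM with TGFbeta, against 9.56 and 8.34 TPM with vehicle (log2 change 0.89, limma adjusted p = 0.0393). For the receptor kinase gene Ror1 it was 1.04 (limma adjusted p = 0.0533) and for the ligand gene Wnt11 -0.90 (0.0590), and neither passed. Of the 9 tested relatives, 1 fell and 0 rose (4.38% and 1.54% of all tested genes), with a median of -0.24. Sparcl1, the closest homologue of Sparc, had 17.3 and 18.3 TPM with TGFbeta, against 34.8 and 40.1 TPM with vehicle (log2 change -1.03, limma adjusted p = 0.0229). Fstl1 at 0.62 (limma adjusted p = 0.0697) and osteopontin, Spp1, at 0.82 (0.159) did not pass.

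Of the 8 genes of the endoplasmic reticulum that work with thrombospondins, 1 rose and 0 fell (1.54% and 4.38% of all tested genes), while the median of the list was 0.61. Hspa5, the chaperone BiP, reached 0.90 on the log2 scale (limma adjusted p = 0.0486), the lectin chaperone gene Calr 0.83 (0.0524) and the chaperone gene Hsp90b1 0.67 (0.109). All 8 had higher levels in both TGFbeta libraries than in both vehicle libraries, as 15.5% of all tested genes had. Of the 6 proteases, limma called 0, where 5.92% of all tested genes were called, and 3 had an unadjusted p under 0.05, as 24.5% of all tested genes had. On the log2 scale the membrane protease gene Mmp14 stood at 0.59 (limma adjusted p = 0.0581), the gelatinase genes Mmp2 at -0.59 (0.0833) and Mmp9 at -0.70 (0.131).

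All 7 of these calls were lost when any library was left out and when every gene above 0 was tested. With protein-coding genes alone 20 of the tracked genes were called, and without an intensity trend 3.

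**Figure D4:**
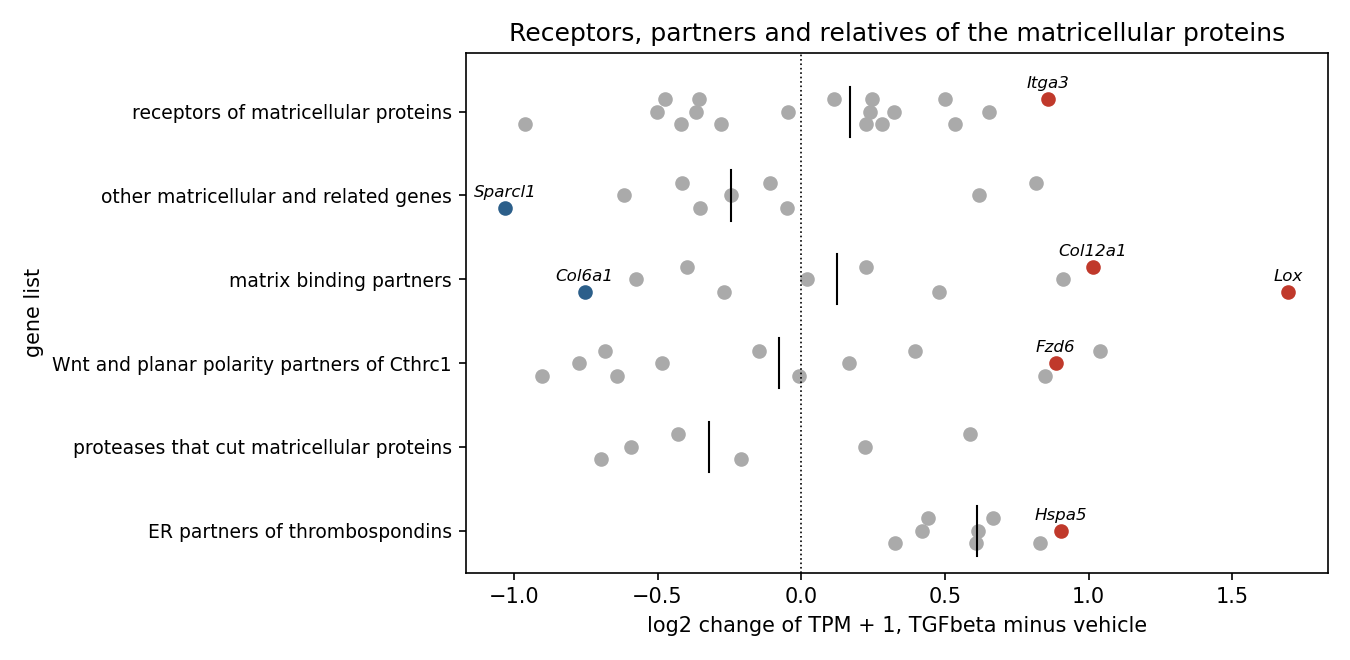
Log2 change, TGFbeta minus vehicle, of the tested genes in 6 lists around the matricellular proteins; each point is a gene, coloured and named where limma called it (red higher, blue lower), and the vertical bar is the list median. Lox has the largest change at 1.70, and the 8 genes of the endoplasmic reticulum list all lie right of 0.

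The 100 most abundant genes held 29.8% and 27.0% of TPM in the TGFbeta libraries, against 23.3% and 24.4% in the vehicle libraries. The libraries carried the markers of their labelled cell type. Among all tested genes 1.54% were called higher and 4.38% lower, beside the marker counts given here. All 11 markers of cardiac fibroblasts were tested, and 2 of them, Pdgfra and Tcf21, fell. Their summed levels were 21138 and 20043 TPM for the 11 genes in the TGFbeta libraries, against 23983 and 20349 TPM in the vehicle libraries. Of 7 myofibroblast markers 4 rose, of which Postn and Cthrc1 are themselves in the set and the others were Acta2 (log2 change 1.03, limma adjusted p = 0.0293) and Cnn1 (1.48, 0.0392). Tagln (log2 change 0.50, limma adjusted p = 0.137), Myl9 (0.66, 0.0562) and Tpm2 (0.06, 0.866) did not pass. The Acta2 call was lost when any library was dropped (limma adjusted p = 0.0722 to 0.264), with every gene above 0 (0.124) and after quantile normalization (0.0542). The marker Col1a1 gained a call with a mean TPM of at least 5 (limma adjusted p = 0.0485) and among protein-coding genes alone (0.0387). Col1a2, Col3a1 and Dcn were called in no setting. For the remaining marker genes outside the set, other settings are not given. Wisp1, the gene named in the study title, had 153 and 141 TPM with TGFbeta, against 25.3 and 21.98 TPM with vehicle, and Elavl1, which encodes HuR, had 51.2 and 54.7 TPM against 51.1 and 45.7 TPM. Markers of other cells were also present. Their summed levels were 67.1 and 72.2 TPM with TGFbeta, against 85.7 and 129 TPM with vehicle, for 8 cardiomyocyte genes, and 58.8 and 52.5 against 72.5 and 76.0 TPM for 7 endothelial genes. They were 63.6 and 68.8 against 78.0 and 97.9 TPM for 8 macrophage and leukocyte genes, and 80.4 and 82.7 against 109 and 116 TPM for 7 genes of pericytes and smooth muscle, of which Mcam rose and Notch3 fell. Platelets are a rich source of thrombospondin 1. For 5 platelet genes the sums were 70.4 and 65.5 TPM with TGFbeta, against 82.7 and 81.9 TPM with vehicle; Itga2b fell. Of the other platelet genes, Pf4 had 15.2 and 27.7 TPM with TGFbeta, against 37.0 and 29.95 TPM with vehicle, and Gp1bb 44.9 and 27.0 against 26.3 and 26.9 TPM, while Ppbp and Gp9 stayed below 1 TPM. Sums for 4 Schwann cell genes were 5.16 and 5.61 against 5.31 and 7.50 TPM, and for 4 epicardial genes 10.4 and 10.1 against 11.9 and 14.5 TPM. Of the cardiomyocyte genes, Tnnt2 had 35.2 and 34.6 TPM with TGFbeta, against 46.97 and 81.4 TPM with vehicle, Tnni3 7.62 and 10.8 against 14.8 and 17.6 TPM, Actn2 15.5 and 18.2 against 15.7 and 17.5 TPM, and Nppa 7.32 and 6.77 against 6.05 and 10.6 TPM. The contractile genes Myh6 and Ttn stood below 0.395 TPM. Notch3 had 21.1 and 17.4 TPM with TGFbeta, against 73.97 and 83.9 TPM with vehicle, and the macrophage gene Lyz2 had 42.9 and 48.1 against 55.2 and 66.4 TPM. No listed gene was at 0 in all 4 libraries. The sums for cardiomyocyte, macrophage, platelet, endothelial, pericyte and epicardial genes were all higher with vehicle, as was Tnxb, while the Schwann cell sums overlapped. The pericyte sum was higher with vehicle through Notch3, while Mcam and Cspg4 were higher with TGFbeta. Mcam had 29.3 and 29.4 TPM with TGFbeta, against 15.2 and 13.6 TPM with vehicle. For Cspg4 these were 22.5 and 16.7 against 12.4 and 10.7 TPM. In the epicardial list Upk3b was higher with vehicle, at 7.32 and 6.77 TPM with TGFbeta against 9.19 and 12.1 TPM. Wt1 was higher with TGFbeta, at 2.28 and 2.49 against 1.80 and 1.44 TPM. Both TGFbeta libraries lay below both vehicle libraries for 39.8% of all tested genes. The part of these other cells in the results was not tested.

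Over 14 other settings of the processing (13 for Tgfbi), the log2 change ran from 2.31 to 2.74 for Postn, from 2.08 to 2.85 for Cthrc1, from 0.85 to 1.32 for Thbs1, from 0.60 to 1.19 for Tnc and from -3.54 to -2.31 for Tnxb. Thbs2 and Thbs3 stayed below 0 and Sparc and Thbs4 above 0 in every one of these settings, without being called in any. The median of all genes moved by 0.15 after median scaling and by 0.14 after quantile normalization, so that with TGFbeta 421 genes were higher and 401 lower, or 333 higher and 401 lower, in place of 244 higher and 692 lower. The same 4 genes of the set were called under both scalings, and median scaling added Tnc.

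**Figure D5:**
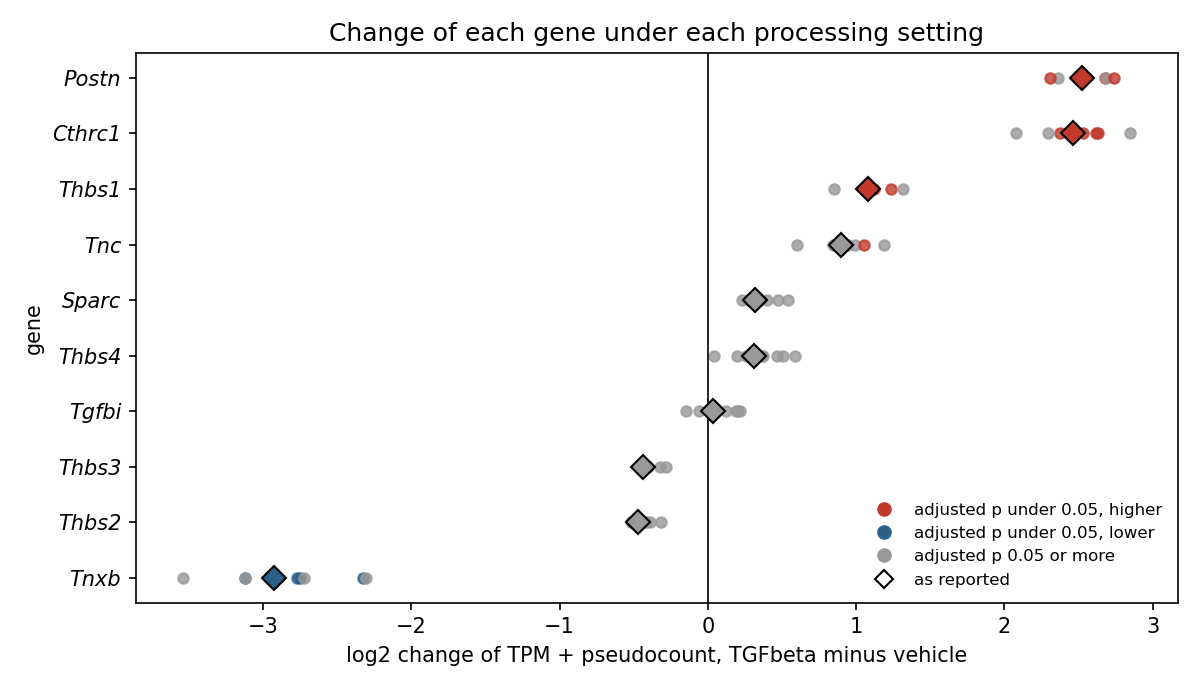
Log2 change of each gene, TGFbeta minus vehicle, under the reported setting (diamond) and each alternative (circles), coloured red or blue where the limma adjusted p was under 0.05 and grey where it was not. Postn, Cthrc1, Thbs1 and Tnc stay right of 0 and Tnxb left of 0 throughout, whereas grey circles occur for every gene.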

How the data were processed

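The deposited values are TPM per gene symbol, computed by the authors, 1 value a gene and library, per the file headers; each library was checked to sum to 1000000. Per the labels' protocols, 1 ug of total RNA entered an Illumina TruSeq RNA kit. Which aligner, quantifier, genome build and gene models were used is stated in none of the sources. Read numbers cannot be had from TPM, so depth is unknown and the counting error of a value cannot be estimated. Positions and biotypes came from GENCODE M21 (GRCm38) by symbol (32159 of 33641 matched).

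Levels were compared as log2(TPM + 1) for genes with a mean of at least 1 TPM. Two-sided tests came from limma 3.58.1 under R 4.3.3 (lmFit, then eBayes with an intensity trend) on treatment alone, with Benjamini-Hochberg adjustment across tested genes and a threshold of 0.05. The procedure was also run on simulated data, drawn as independent normal values with a spread taken from these libraries. Such a run cannot show whether calls hold where replicates are technical, and its result is not given here. A log2 change is TGFbeta minus vehicle on the log2(TPM + 1) scale, which understates changes of low genes. Intervals are 95% intervals of the fit. Genes named are all 10 members, the 3 strongest changes of each list, the 3 genes nearest in pattern to Postn, Cthrc1 and Tnxb, and Wisp1, Acta2 and Elavl1; genes named outside this rule, marker genes, Smoc1 and Comp among them, were chosen after their values were seen. Members and lists were chosen with earlier results of these data known. Other settings tried were a pseudocount of 0.1 or 5, no filter but a value above 0, a filter of 5 TPM, quantile and median scaling, eBayes without trend or robust, a replicate block and each library left out; protein-coding genes alone was added after seeing the data.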

Additional observations from a re-analysis of the deposited data

How the results depend on the processing

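Of 139 recomputed log2 changes of the 10 genes, 115 kept their direction and side of the threshold, 18 lost a call, 4 gained one (all Tnc) and 2 turned, both for Tgfbi, to -0.15 without vehicle 1 and -0.06 without TGFbeta 1 (range with 1 library left out, -0.15 to 0.22). Limma called 936 genes in all, 0 with every gene above 0 (4348 at an unadjusted p under 0.05), 602 without an intensity trend and 1712 with protein-coding genes alone. Leaving out 1 library gave 0 to 203 (0 without vehicle 1, with 3033 at an unadjusted p under 0.05, and 0 without vehicle 2, with 2407; 171 without TGFbeta 1 and 203 without TGFbeta 2). Among the 10 genes, 3 called higher and 1 called lower became 0 and 0 with every gene above 0. With 1 library left out the members called higher were 0 to 2 and those called lower 0 in each case; Postn and Cthrc1 stayed without TGFbeta 1, and Postn without TGFbeta 2. In these fits the lone library of a group is assumed to vary like the other group. The cause of these losses was not tested, beyond the fewer samples or more genes in each fit. With the replicate number as a block 631 genes were called, with the same 4 of the 10; the block ended the calls of Itga3, Col6a1, Fzd6 and Hspa5, leaving 3 of the 7 around the set. Same-numbered libraries did not deviate together (r = -0.0539 across 15815 genes), so no strong shared effect of the replicate number was seen. Whether same-numbered libraries came from the same animal or culture cannot be told from this value. The log2 difference of the tenascin ratio ran from 2.91 to 4.73 with 1 library left out, and was 4.03 and 3.18 with pseudocounts of 0.1 and 5. The TGFbeta minus vehicle difference in the Thbs1 share of thrombospondin TPM ran from 17.98 to 24.7 percentage points with 1 library left out. For 362 recomputed changes of the other named genes, 272 kept direction and side, 61 lost a call and 29 gained one. With 2 libraries a group and unknown depth, changes the size of those of Thbs2 and Thbs3 could not be separated from replicate spread after adjustment.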

Other observations

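Vehicle 1 lay nearer than vehicle 2 to the TGFbeta mean, on the log2(TPM + 1) scale, for 8 of the 10 genes, against 55.0% of all tested genes and 59.2% of all called genes. Cthrc1 was 1.72-fold, Tnc 1.51-fold and Thbs1 1.38-fold higher in vehicle 1 than in vehicle 2, and Tnxb was 2.40-fold lower. These are values of 2 libraries and were not tested. Among relatives of the set, the Sparc-family gene Smoc1 had 9.46 and 61.9 TPM in the TGFbeta libraries, against 30.9 and 23.0 TPM with vehicle, the widest gap between replicates of TGFbeta among the tested genes of its list. Comp, a pentameric relative of Thbs4, had 74.1 and 84.4 TPM with TGFbeta, against 100.4 and 112 TPM with vehicle, and did not pass.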
